A study of Mus musculus with 2 samples.

Results

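The enzymes that add and remove acetyl groups on histone lysines were followed across the cell types of the mouse ovary as a set of 31 genes, made up of 13 acetyltransferases, 11 zinc-dependent deacetylases and 7 sirtuins. The members were taken by gene symbol from a list of these families and not by their measured values. Earlier results of these data were known when the list was chosen. All 31 were present in the files of both libraries, which together listed 29373 symbols. The cells came from ovaries of ICR females and were captured on the BD Rhapsody bead system for RNA sequencing, in which each messenger RNA molecule carries a molecular identifier and is counted once (UMI count). The control library came from animals gavaged with ddH2O, and the PS-MP library from animals gavaged daily with 1 mg of 0.1 µm polystyrene microplastic particles in 100 µL. Both groups started at 3 weeks of age, were dosed for 35 days and were collected at 8 weeks, and no genetic change is named for either. The labels give a number of 16 mice without saying whether it counts 1 group or both, and each group was 1 library with no link from a cell to an animal. They describe 5 groups of mice, of which these 2 are analysed here, and a dissociated suspension passed through a cell strainer. There was therefore no spread between animals and no test of the exposure, and the intervals given are 95% intervals that cover counting error only. Paired values are control first and PS-MP second throughout.

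Histone acetyltransferases transfer an acetyl group from acetyl-CoA to lysine residues of histone tails, which loosens the contact of the tail with DNA and creates docking sites for bromodomain proteins at active promoters and enhancers. Zinc-dependent deacetylases (classes I, II and IV) hydrolyse the acetyl group, mostly as the catalytic part of larger co-repressor complexes, while sirtuins (class III) use NAD as a co-substrate and act in the nucleus, the cytoplasm or the mitochondria. In the ovary these enzymes are known for their part in the growth and meiotic arrest of oocytes, in the replication of chromatin in proliferating granulosa cells and in the gene programme of luteinizing cells.

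After filtering, 14538 control cells with 152481421 counts and 14412 PS-MP cells with 139213581 counts remained, with medians of 9502.5 and 8643 counts per cell. The cells formed 19 clusters, named as "-like" from marker genes because no cell annotation of the authors was used. Granulosa-like cells (6 clusters, 8366 control and 7540 PS-MP cells) had all 12 granulosa markers at or above 20 CPM when summed, and 9 to 12 in each cluster; CPM are counts scaled to a group total of 1000000. Cluster 3 (1878 and 1581 cells) also had 11 of those 12 markers at this level and was kept apart for the naming rule on leading genes alone. Luteal-like cells fell into cluster 12 (232 and 133 cells) and cluster 6, which held 4 control and 1900 PS-MP cells and so could not be compared between the libraries. None of the 31 genes was among the 2000 variable genes that placed the cells, and levels are taken from the counts summed over a group, which are not scaled to gene length. The levels of different genes are therefore not compared, and where a gene is given as a share of the summed counts of its paralogs, that share is read only between groups of cells.

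The summed level of the 31 genes lay in a narrow band across the ovary, with oocyte-like cells above it. Granulosa-like cells held 1343 CPM (1336 to 1351) in the control library and 1289 CPM (1281 to 1297) in the PS-MP library. Oocyte-like cells (76 and 93 cells) held 1725 CPM (1669 to 1782) in the control library and 1579.9 CPM (1523 to 1639) in the PS-MP library, the highest of the 11 groups seen in both libraries, and luteal-like cluster 12 held 1069 CPM (1037 to 1101) in the control library and 1078 CPM (1032 to 1126) in the PS-MP library, the lowest in both. Stromal fibroblast-like (1343 and 1264), blood endothelial-like (1343 and 1191), lymphoid-like (1323 and 1284), pericyte-like (1303 and 1156), dendritic-like (1276 and 1192), cluster 3 (1268 and 1238), theca-like (1254 and 1182) and macrophage or monocyte-like cells (1141 and 1166) lay between, in CPM for control and PS-MP. The intervals of the oocyte-like level did not meet those of any other group in either library, whereas those of stromal, lymphoid, pericyte and dendritic-like cells overlapped one another in both.

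Each family contributed differently to that order. The acetyltransferase sum was highest in oocyte-like cells (1022 and 939 CPM) and lowest in luteal-like cluster 12 (602 and 602 CPM), against 789.7 and 759.6 CPM in granulosa-like cells. The deacetylase sum was lowest in macrophage or monocyte-like cells (235 and 230.2 CPM) and reached 454 and 410.2 CPM in blood endothelial-like and 476 and 440.3 CPM in oocyte-like cells. The sirtuin sum was closer between groups, at 190.5 and 179 CPM in granulosa-like, 168 and 170.0 CPM in luteal-like cluster 12 and 227 and 200.4 CPM in oocyte-like cells. With every cell thinned to 3500 counts, the median cell held 4 to 6 molecules of the 31 genes in each of the 11 groups, and 6 and 5 in oocyte-like cells, so no single cell shows the pattern of the set.

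**Figure D1:**
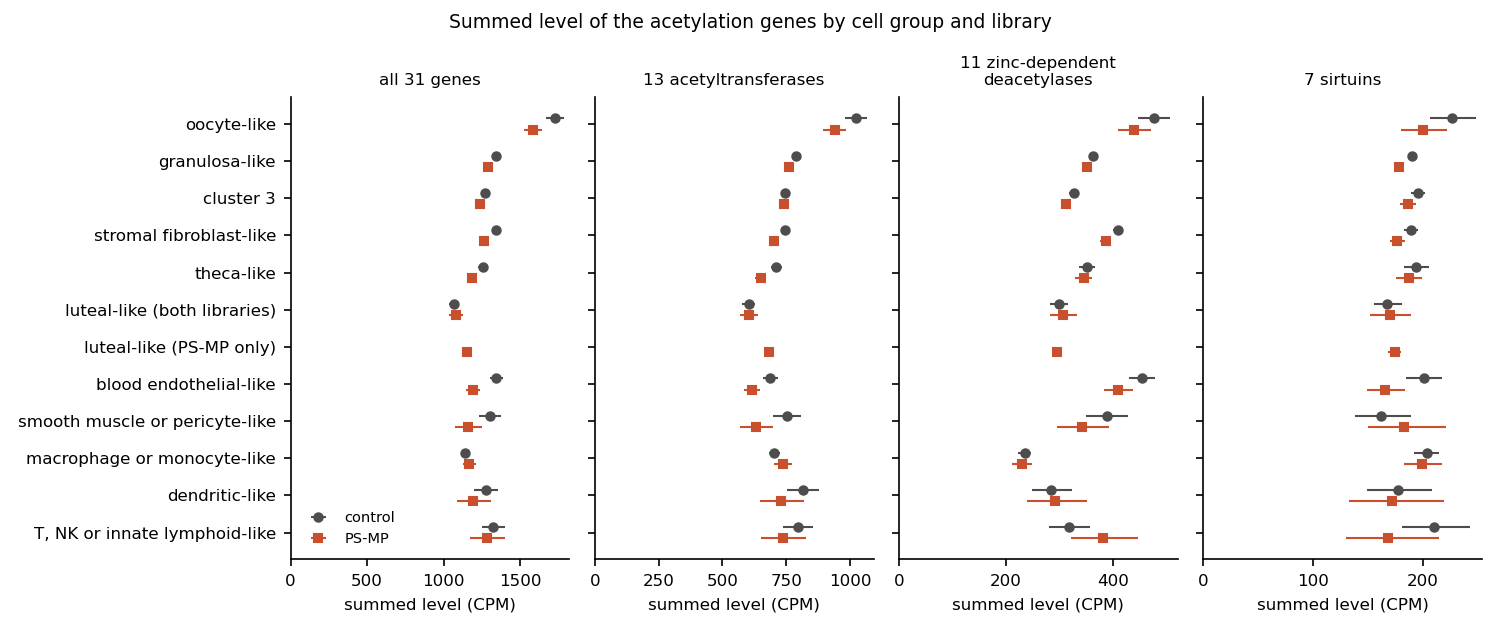
Summed level (CPM, x axis) of all 31 genes and of each family in 12 cell groups (y axis); grey circles are the control and orange squares the PS-MP library, and bars are 95% counting intervals. The oocyte-like points lie to the right of all others in the panel of all 31 genes, at 1725 and 1579.9 CPM.

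Among the acetyltransferases, the paralogous co-activators p300 and CBP, which acetylate histone H3 at enhancers, were expressed in every group. Ep300 stood at 115 and 109 CPM in granulosa-like cells and 164 and 151 CPM in oocyte-like cells, and Crebbp at 119 and 108 CPM and 172 and 147 CPM in the same groups. Both were highest in oocyte-like cells in both libraries. The 2 GCN5-family enzymes, catalytic subunits of the SAGA and ATAC complexes, had different distributions. Kat2a was highest in granulosa-like cells (25.9 and 24.8 CPM) and cluster 3 (24.1 and 24.1 CPM) and lower in dendritic-like cells (8.43 and 7.95 CPM), while Kat2b was lowest in oocyte-like cells (22.6 and 23.5 CPM) and reached 56.0 and 57.2 CPM in luteal-like cluster 12 and 63.8 and 55.6 CPM in dendritic-like cells. Kat2b therefore made up 50.5% (40.0 to 61.1) and 53.1% (41.7 to 64.3) of the Kat2a and Kat2b counts in oocyte-like cells and 74.9% (69.6 to 79.7) and 77.1% (69.3 to 83.8) in luteal-like cluster 12, for control and PS-MP.

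The MYST family includes Kat6a and Kat6b, which acetylate histone H3, Kat7, which acetylates histone H3 and licenses replication origins, and Kat5 and Kat8, which acetylate histone H4. Kat6a ranged from 69.8 and 52.6 CPM in oocyte-like to 134 and 124 CPM in lymphoid-like cells and was lowest in oocyte-like cells in both libraries. Kat6b was lower in macrophage or monocyte-like cells (19.1 and 22.0 CPM) than in granulosa-like cells (43.4 and 36.5 CPM) in both libraries. Kat7 was higher in granulosa-like (108 and 113 CPM) and oocyte-like cells (129.9 and 123 CPM) than in stromal fibroblast-like cells (71.1 and 70.0 CPM). Kat5 stood at 10.99 and 9.90 CPM in granulosa-like cells, and its highest level was in oocyte-like cells (20.2 and 18.6 CPM).

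Hat1, the enzyme that acetylates newly made histone H4 before its assembly into chromatin, differed between cell groups. It stood at 141 CPM (125 to 158) in the control library and 141 CPM (124 to 159) in the PS-MP library in oocyte-like cells and at 107 CPM (105 to 109) in the control library and 112 CPM (109.8 to 115) in the PS-MP library in granulosa-like cells. Theca-like cells held 40.3 and 46.9 CPM and luteal-like cluster 12 held 43.7 and 30.7 CPM. Hat1 was thus higher in oocyte-like and granulosa-like than in theca-like and luteal-like cells in both libraries without overlap of the intervals, while dendritic-like cells (86.7 and 76.8 CPM) overlapped granulosa-like cells. The p160 nuclear receptor co-activators bring p300 and CBP to steroid receptors. Ncoa1 was lowest in blood endothelial-like cells in both libraries (33.7 and 24.7 CPM), against 47.5 and 42.3 CPM in granulosa-like cells. Ncoa2 reached 56.6 and 52.6 CPM in cluster 3 against 31.8 and 32.1 CPM in stromal fibroblast-like cells.

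The class I deacetylases Hdac1 and Hdac2 are interchangeable catalytic subunits of the Sin3, NuRD and CoREST complexes, and their balance differed between groups. Hdac1 stood at 93.5 and 84.9 CPM in stromal fibroblast-like cells, 82.4 and 97.5 CPM in luteal-like cluster 12, 67.1 and 62.4 CPM in granulosa-like cells and 46.5 and 48.2 CPM in cluster 3, its lowest group in both libraries. Hdac2 stood at 90.4 and 87.4 CPM in granulosa-like cells and 37.5 and 40.5 CPM in macrophage or monocyte-like cells. Hdac1 accordingly made up 42.6% (41.8 to 43.4) and 41.6% (40.7 to 42.6) of the summed Hdac1 and Hdac2 counts in granulosa-like cells and 59.5% (55.4 to 63.5) and 56.0% (49.4 to 62.4) in macrophage or monocyte-like cells. Hdac3, the catalytic subunit of the NCoR and SMRT complexes, stood at 52.4 and 53.5 CPM in granulosa-like and 36.7 and 30.7 CPM in macrophage or monocyte-like cells. Hdac8, an X-linked enzyme that deacetylates the cohesin subunit Smc3, stood at 20.9 and 19.9 CPM in granulosa-like cells and 11.6 and 14.2 CPM in macrophage or monocyte-like cells.

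Class IIa deacetylases have weak catalytic activity, bind Mef2 transcription factors and leave the nucleus when phosphorylated. Each of the 4 had its own distribution. Hdac4 was highest among the larger groups in cluster 3 (74.7 and 66.3 CPM) and granulosa-like cells (65.7 and 64.3 CPM) and lower in macrophage or monocyte-like cells (33.8 and 32.7 CPM). Hdac5 stood at 14.6 and 12.5 CPM in granulosa-like and 24.97 and 17.5 CPM in blood endothelial-like cells. Hdac7 and Hdac9 were restricted to other cell types and are described below with the 4 other restricted genes. As a result Hdac4 gave 69.8% (68.8 to 70.8) and 72.5% (71.4 to 73.6) of the class IIa counts in granulosa-like cells, Hdac7 gave 68.6% (65.0 to 72.0) and 65.7% (61.2 to 70.1) in blood endothelial-like cells and Hdac9 gave 58.0% (47.0 to 68.4) and 49.1% (35.1 to 63.2) in dendritic-like cells. Of the class IIb and IV enzymes, Hdac10, a polyamine deacetylase, did not exceed 10.4 CPM in any of the 11 groups, and Hdac11, the class IV enzyme, was at 2.61 and 1.94 CPM in granulosa-like cells and 23.1 and 17.5 CPM in oocyte-like cells.

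Of the sirtuins, Sirt1, a nuclear deacetylase of histones and transcription factors, was highest in granulosa-like cells in both libraries (60.9 and 54.3 CPM) and low in luteal-like cluster 12 (22.2 and 21.2 CPM). Sirt2, a mainly cytoplasmic deacetylase of tubulin, was highest in macrophage or monocyte-like cells, with 105 CPM (96.7 to 113) in the control library and 102 CPM (89.9 to 115) in the PS-MP library. Stromal fibroblast-like cells held 81.5 and 80.4 CPM of Sirt2 and granulosa-like cells 50.4 and 45.1 CPM. The mitochondrial sirtuins Sirt4 and Sirt5 were low: Sirt4 was highest in theca-like cells (18.01 and 14.6 CPM), and Sirt5 lay at 7.09 and 7.12 CPM in granulosa-like and 2.52 and 2.67 CPM in stromal fibroblast-like cells. Sirt6, a chromatin-bound enzyme linked to DNA repair, reached 66.9 and 49.3 CPM in oocyte-like cells against 26.5 and 28.2 CPM in granulosa-like cells. Sirt7, a nucleolar enzyme, was higher in macrophage or monocyte-like (35.1 and 30.7 CPM) than in granulosa-like cells (16.0 and 16.7 CPM).

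**Figure D2:**
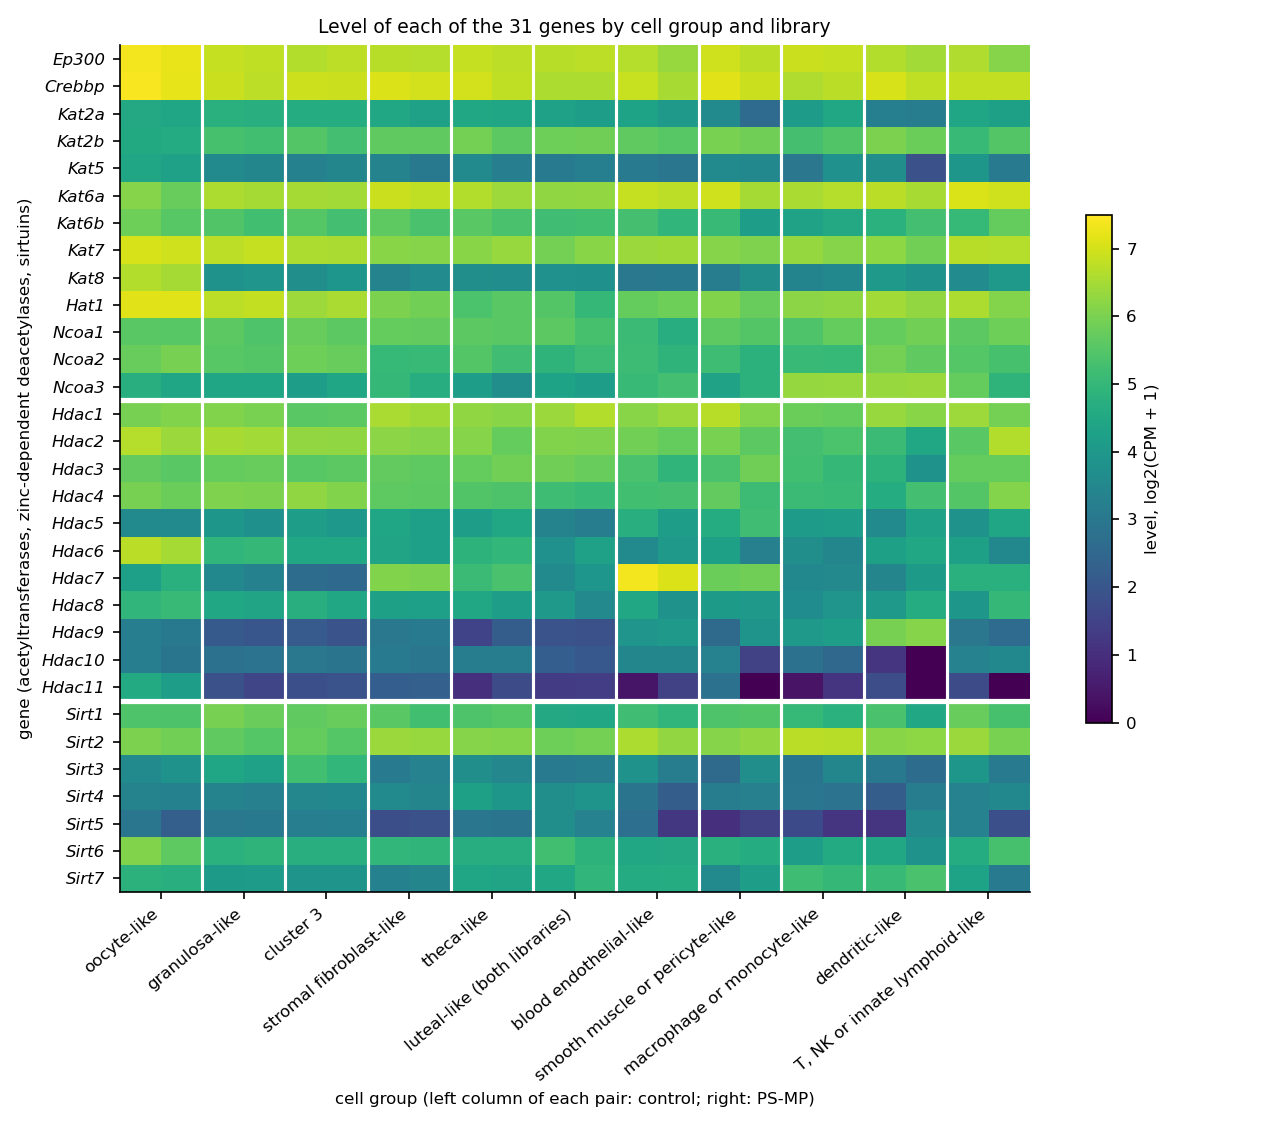
Level of each of the 31 genes (rows) as log2(CPM + 1) in the 11 groups seen in both libraries; within each pair of columns the left is the control and the right the PS-MP library. The bright squares of Hdac7 in blood endothelial-like and of Kat8 and Hdac6 in oocyte-like cells stand out from their rows, in both columns of the pair.

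6 genes met a rule for restriction to a cell group, namely that the same group was highest in both libraries and at least 3 times the median of the 11 groups. They were Kat8 and Hdac6 (oocyte-like), Hdac7 (blood endothelial-like), Hdac9 and Ncoa3 (dendritic-like) and Sirt3 (cluster 3). Of the 31 genes, 26 reached 20 CPM in their highest group in both libraries and could meet the rule, and 6 of 26 is 23.1%. Over all 10941 genes that could meet it the share was 33.9%. Most genes of either set thus did not meet the rule, and the share is not read as a trait of these enzymes. Since the groups come from clustering the same cells, this is a description with no test.

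Kat8, the catalytic subunit of the MSL and NSL complexes that acetylates histone H4 at lysine residues, stood at 98.7 CPM (85.6 to 113) in the control library and 88.7 CPM (75.6 to 103) in the PS-MP library in oocyte-like cells. It lay at 13.3 and 13.9 CPM in granulosa-like cells and in no group but oocyte-like cells did it exceed the 15.7 CPM of dendritic-like control cells. Hdac6, a cytoplasmic deacetylase of tubulin and Hsp90, stood at 104 CPM (90.5 to 119) in the control library and 88.7 CPM (75.6 to 103) in the PS-MP library in oocyte-like cells, at 29.7 and 30.6 CPM in granulosa-like cells and at 11.1 and 15.3 CPM in blood endothelial-like cells. In neither gene did the intervals of oocyte-like cells meet those of another group. Oocyte-like cells were the deepest group, with medians of 22942.5 and 15442 counts per cell. The oocyte-like cluster was not pure: its summed oocyte markers were 7069.6 and 6443 CPM and its summed granulosa markers 3890.0 and 4556 CPM. A split chosen after the data were seen kept the 51 control and 50 PS-MP cells of the cluster with more oocyte than granulosa marker counts, and there Kat8 stood at 114 and 104 CPM, Hdac6 at 120.3 and 106 CPM, Hdac11 at 29.4 and 22.5 CPM and Sirt6 at 77.1 and 61.1 CPM, so each was higher there than in the whole cluster.

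Hdac7, a class IIa deacetylase known for vascular integrity, stood at 166 CPM (151 to 181) in the control library and 136 CPM (121 to 152) in the PS-MP library in blood endothelial-like cells. Stromal fibroblast-like (66.9 and 64.2 CPM), pericyte-like (55.0 and 58.1 CPM) and theca-like cells (33.6 and 39.8 CPM) followed, and granulosa-like cells held 10.4 and 8.90 CPM. Hdac7 was thus higher in blood endothelial-like, stromal fibroblast-like, pericyte-like and theca-like cells than in the summed granulosa-like cells. Its level differed between single granulosa clusters, as given below. The cells were dissociated, so no place in the tissue is read from these levels. Hdac9, a class IIa deacetylase whose gene is expressed in muscle, brain and immune cells, stood at 61.4 CPM (45.7 to 80.8) in the control library and 68.9 CPM (45.0 to 101) in the PS-MP library in dendritic-like cells, followed by macrophage or monocyte-like (15.5 and 17.3 CPM) and blood endothelial-like cells (14.2 and 15.7 CPM), with 3.39 and 2.99 CPM in granulosa-like cells. The dendritic-like cells held summed stromal markers of 159 and 1555 CPM. Both dendritic-like clusters held Hdac9, at 55.9 and 72.2 CPM in the Xcr1-positive cluster 16 and 67.8 and 62.5 CPM in the Siglech-positive cluster 17.

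Ncoa3, a p160 co-activator of nuclear receptors, was shared by the myeloid groups, at 80.7 and 82.1 CPM in dendritic-like and 78.3 and 79.9 CPM in macrophage or monocyte-like cells, which did not differ beyond their intervals, with 52.1 and 28.5 CPM in lymphoid-like cells, against 20.6 and 20.1 CPM in granulosa-like cells. Of the dendritic-like cells, cluster 16 held 96.2 and 100.3 CPM of Ncoa3 and cluster 17 held 62.6 and 46.8 CPM. The last value rested on 6 counts (17.2 to 102 CPM). Sirt3, the main deacetylase of mitochondrial proteins, stood at 36.4 CPM (33.7 to 39.3) in the control library and 30.3 CPM (27.4 to 33.4) in the PS-MP library in cluster 3, above 20.4 and 18.8 CPM in the other granulosa-like cells and 7.72 and 9.12 CPM in stromal fibroblast-like cells. In the GRCm38 gene models used here for names only, exons of Hdac7, Kat8, Ncoa3 and Sirt3 overlap a gene on the other strand, and the strand setting of the authors' counting is not given in the sources used here. Slc48a1, which overlaps Hdac7, stood at 85.7 and 99.2 CPM in blood endothelial-like and 110.3 and 111 CPM in macrophage or monocyte-like cells, where Hdac7 stood at 10.4 and 10.6 CPM. In granulosa-like cells Slc48a1 stood at 42.2 and 42.3 CPM, below blood endothelial-like cells and so the same direction as Hdac7. Whether reads were shared was not tested. Sulf2, which overlaps Ncoa3, stood at 490.3 and 479 CPM in granulosa-like and 174 and 204 CPM in macrophage or monocyte-like cells, the opposite order to Ncoa3, and Prss8, which overlaps Kat8, stood at 1.93 and 1.10 CPM in oocyte-like cells. Psmd13, which overlaps Sirt3, stood at 30.4 and 30.95 CPM in cluster 3 and 32.3 and 32.5 CPM in granulosa-like cells. Ric8a, which overlaps it too, stood at 22.8 and 21.1 CPM in cluster 3 and 17.8 and 19.7 CPM in granulosa-like cells, the same direction as Sirt3.

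**Figure D3:**
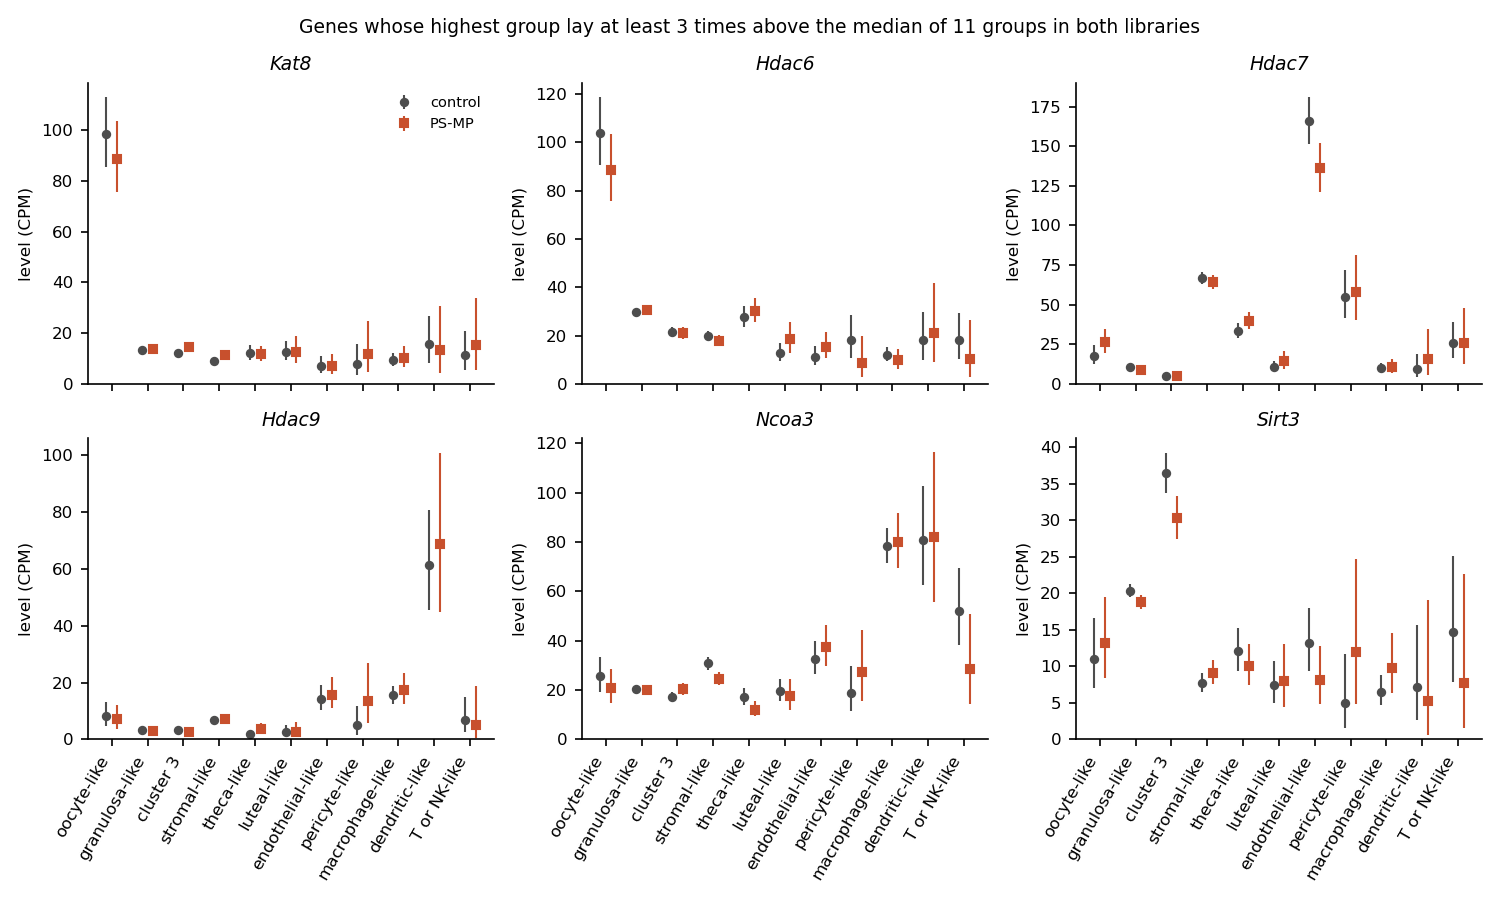
Level (CPM, y axis) of the 6 restricted genes in the 11 groups seen in both libraries; circles are the control, squares the PS-MP library, and bars are 95% counting intervals. In each panel both libraries peak in the same group, which the rule that chose these genes required. Hdac7, for example, stands at 166 and 136 CPM in blood endothelial-like cells.

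The stretches of 250 bases before the annotated start were read for the 25 members present in a RefSeq table of mouse promoters (build GRCm38.p6), which gave 35 windows. They are shown for 3 genes that differ in their number of CG pairs, Hat1, Hdac6, which was highest in oocyte-like cells, and Hdac9, which was highest in dendritic-like cells, with the CG pairs in capitals and each window written 5′ to 3′ on the strand of the gene.
Hat1 (chr2:71389010-71389259, + strand): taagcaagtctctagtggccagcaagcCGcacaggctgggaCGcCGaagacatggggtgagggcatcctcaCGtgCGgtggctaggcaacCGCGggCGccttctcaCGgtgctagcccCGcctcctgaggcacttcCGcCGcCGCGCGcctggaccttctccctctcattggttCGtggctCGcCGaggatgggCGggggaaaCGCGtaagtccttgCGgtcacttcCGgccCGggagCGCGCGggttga
Hdac6 (chrX:7947890-7948139, - strand): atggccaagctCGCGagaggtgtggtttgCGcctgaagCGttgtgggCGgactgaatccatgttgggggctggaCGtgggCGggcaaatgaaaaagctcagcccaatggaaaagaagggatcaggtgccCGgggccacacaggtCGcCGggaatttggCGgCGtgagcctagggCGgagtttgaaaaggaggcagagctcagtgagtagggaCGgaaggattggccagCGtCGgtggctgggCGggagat
Hdac9 (chr12:34917096-34917345, - strand): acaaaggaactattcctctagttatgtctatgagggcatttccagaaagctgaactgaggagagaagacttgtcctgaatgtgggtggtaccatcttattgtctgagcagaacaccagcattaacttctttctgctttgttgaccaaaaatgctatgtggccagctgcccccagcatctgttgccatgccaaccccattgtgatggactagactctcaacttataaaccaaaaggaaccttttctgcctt
The Hat1 window holds 27 CG pairs, the Hdac6 window 17 and the Hdac9 window 0, while another annotated Hdac9 start holds 2. Over the 35 windows the median was 15 CG pairs and a GC content of 61.2%, beside 6 pairs and 52.4% over all 32851 windows of the table. The motif GGGCGG, searched on both strands, was present in 60% of the 35 windows and 32.7% of all windows, and CCAAT, also on both strands, in 40% and 33.8%. GGGCGG itself holds 1 CG pair, so its count is not independent of the CG count. The Hat1 and Hdac6 windows hold both motifs, and the Hdac9 windows hold neither. These are counts of letters in a window and say nothing on which factors bind there. The members without a window in the table were Hdac1, Hdac3, Hdac10, Kat6a, Ncoa2 and Ncoa3, and the counts of the files come from another build (GRCm39, per the submitters' processing notes).

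Within the granulosa lineage, levels of several members differed between dividing and non-dividing clusters and with the state marked by Inhba, which encodes the inhibin and activin beta A subunit. Clusters 4 and 7 were dividing, with the topoisomerase Top2a at 1097 and 1046 CPM and 1475 and 1367 CPM, against 106 and 165 CPM in cluster 0. Clusters 0 and 7 were Inhba-high, at 11201 and 5427 CPM and 9193 and 4922 CPM, against 248 and 317 CPM in cluster 4. The dividing and non-dividing clusters were compared as 7 over 0 and as 4 over 3, within each library. The clusters come from the same cells, so these comparisons are descriptions with counting intervals. The dividing cells were also deeper, with median counts per cell of 13952 and 12875 in cluster 7 against 9443 and 8710 in cluster 0, and of 14980 and 12675 in cluster 4 against 9367 and 8139 in cluster 3, and the part of depth was not tested.

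Hat1, Kat7 and Hdac2 were higher in the dividing cluster in both pairs and both libraries. Hat1 stood at 137 and 127 CPM in cluster 7 and 84.5 and 100.4 CPM in cluster 0, a ratio of 1.62 and 1.26 for control and PS-MP, and at 148 and 146 CPM in cluster 4 and 83.8 and 93.2 CPM in cluster 3, a ratio of 1.77 and 1.57. Kat7 ratios were 1.22 and 1.32 for clusters 7 over 0 and 1.30 and 1.35 for clusters 4 over 3. Hdac2 ratios were 1.16 and 1.10 for the first of these pairs and 1.24 and 1.23 for the second. For clusters 4 over 3, Hdac6 was the fourth, at 27.1 and 29.9 CPM against 21.3 and 21.1 CPM. Against cluster 5, marked by Igfbp5 and Amh, cluster 4 had Hat1 ratios of 1.19 and 1.07 and Kat7 ratios of 1.17 and 1.15, while those of Hdac2 were 0.961 and 1.02, with intervals that held 1. Cluster 5 had Top2a at 157 and 141 CPM but the replication clamp gene Pcna at 454 and 509 CPM, beside 589 and 671 CPM in cluster 4 and 327 and 438 CPM in cluster 0. Hat1 was also high there (124 and 136 CPM), and lowest in cluster 2 (50.8 and 54.6 CPM).

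More members were lower than higher in the dividing cluster of both pairs, and these counts are not read as a trait of these genes. The counts out of 31 include members under 20 CPM and have no share of all genes beside them. With the counting interval below 1 in both libraries, 11 of the 31 were lower in cluster 7 than in cluster 0, among them Crebbp, Kat2b, Kat6b, Ncoa1, Hdac8, Sirt1, Sirt2 and Sirt7, and 13 were lower in cluster 4 than in cluster 3. Of the 18 members with a mean of at least 20 CPM in the first pair, 3 were higher and 6 lower, beside 22.0% and 25.1% of all 7139 such genes. Of 20 in the second pair, 4 were higher and 9 lower, beside 31.2% and 28.9% of 7090 genes. Kat6b stood at 34.7 and 30.7 CPM in cluster 7 and 51.2 and 38.5 CPM in cluster 0, and Sirt2 at 35.8 and 33.5 CPM in cluster 4 and 52.0 and 45.0 CPM in cluster 3. Crebbp, Kat2b, Kat6b, Ncoa1, Hdac8, Hdac11, Sirt2, Sirt4 and Sirt5 were lower in the dividing cluster of both pairs.

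Hdac1 was highest in the Inhba-high clusters. It stood at 91.9 and 77.4 CPM in cluster 0 and 94.7 and 78.4 CPM in cluster 7, against the lowest level of 39.2 and 43.6 CPM in cluster 10 and 56.3 and 57.3 CPM in cluster 2, the highest of the other 5 clusters. The clusters 0 and 7 thus did not overlap the other 5, in either library. Sirt1 was also highest in cluster 0 (81.9 and 65.7 CPM), beside 45.8 and 48.7 CPM in cluster 5. Hdac4 was highest in clusters 5 and 10 (95.1 and 87.4 CPM and 95.8 and 90.9 CPM) and lower in cluster 0 (55.4 and 62.0 CPM). Hdac7 reached 32.6 and 25.6 CPM in cluster 2, marked by H19 and Rnase1, and 14.7 and 21.5 CPM in cluster 10, against 4.02 and 4.31 CPM in cluster 5. In those clusters the summed endothelial markers were 12.0 and 13.5 CPM (cluster 2), 12.3 and 10.9 CPM (cluster 10) and 13.5 and 13.8 CPM (cluster 5), and the summed stromal markers 78.0 and 84.7 CPM, 131 and 140.0 CPM and 67.1 and 69.4 CPM.

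**Figure D4:**
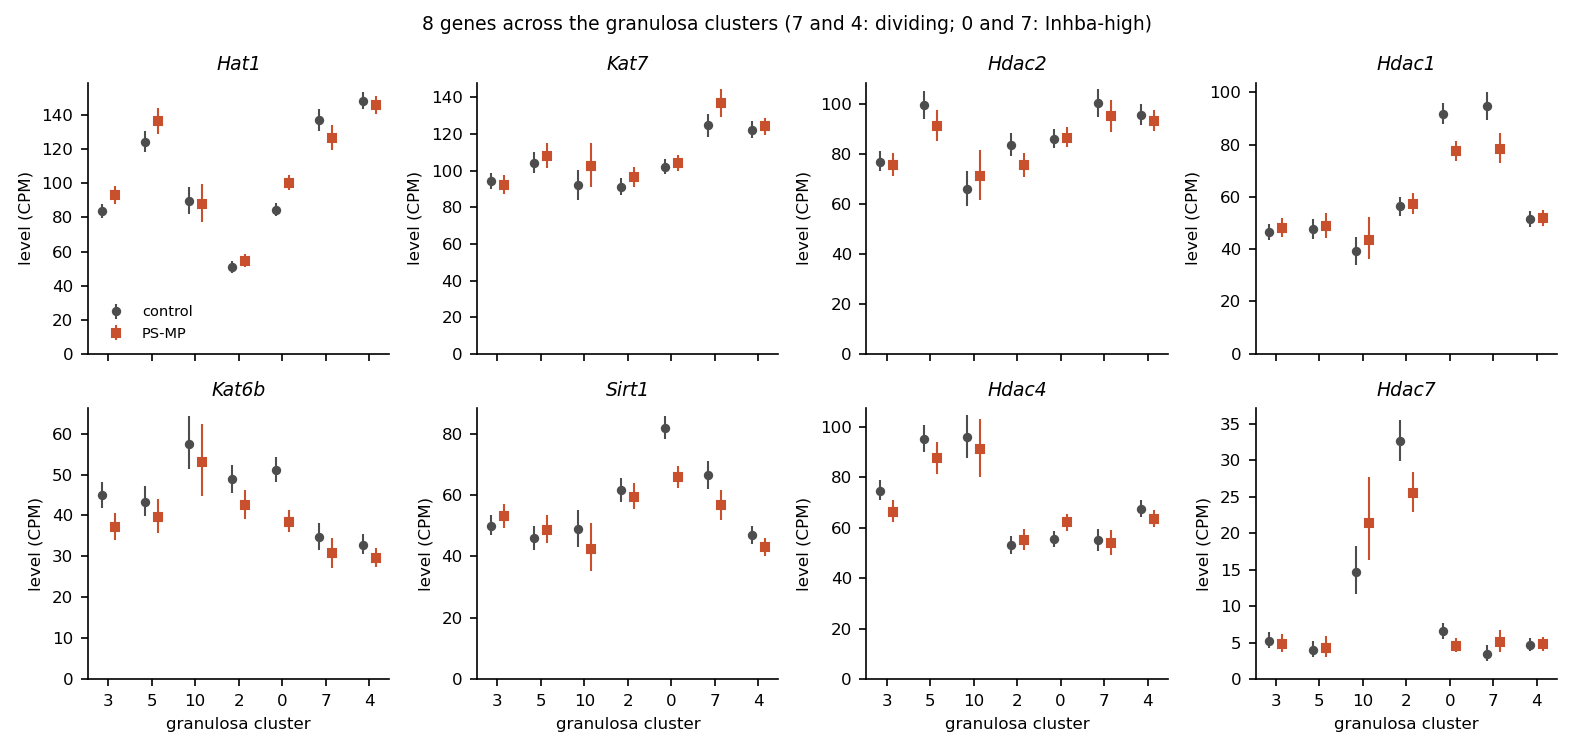
Level (CPM, y axis) of 8 members in the 7 granulosa clusters (x axis, by cluster number); circles are the control, squares the PS-MP library, and bars are 95% counting intervals. Hat1 is highest in the dividing clusters 4 and 7 and in cluster 5, Hdac1 in the Inhba-high clusters 0 and 7, and Hdac7 in cluster 2.

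Between the libraries the members moved less than between cell groups. Over the 31 genes, the median absolute log2 difference between PS-MP and control ranged from 0.08 in granulosa-like to 0.27 in blood endothelial-like cells over the 6 groups with at least 200 cells in each library. Between 2 of these groups within 1 library it ranged from 0.14 to 0.69 over 30 pairs, with a median of 0.37 against 0.13 between libraries. The summed level in granulosa-like cells was 1343 and 1289 CPM for control and PS-MP, giving a ratio of 0.959 (0.951 to 0.968). Ratios of the sum were 0.941 (0.923 to 0.959) in stromal fibroblast-like, 0.943 (0.911 to 0.975) in theca-like, 0.887 (0.844 to 0.932) in blood endothelial-like and 0.976 (0.957 to 0.996) in cluster 3 cells, and 1.02 (0.979 to 1.07) in macrophage or monocyte-like cells. The sum was thus below the control in 5 of the 6 groups with the interval below 1. Scaling with TMM factors moved the granulosa-like ratio to 0.984 and that of cluster 3 to 0.996, and turned that of macrophage or monocyte-like cells to 0.994.

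In granulosa-like cells none of the 21 measured members differed by 1.2-fold. Of the 21 members that reached 20 CPM in either library, 0 passed 1.2-fold upward and 0 downward, beside 1.28% and 4.4% of all 7366 genes, and the median log2 ratio was -0.07 against -0.02 over all genes. The other 10 members, Kat5, Kat8, Hdac5, Hdac7, Hdac9, Hdac10, Hdac11, Sirt4, Sirt5 and Sirt7, stayed under that minimum and are not in these counts. Counting intervals lay below 1 for 11 members and above 1 for 3, beside 36.1% and 25.7% of all genes. The member farthest from 1 was Kat6b, at 43.4 and 36.5 CPM, a ratio of 0.840 (0.7996 to 0.882). Crebbp (119 and 108 CPM), Ncoa1 (47.5 and 42.3 CPM), Sirt1 (60.9 and 54.3 CPM) and Sirt2 (50.4 and 45.1 CPM) had ratios of 0.903 (0.877 to 0.929), 0.890 (0.850 to 0.932), 0.893 (0.857 to 0.930) and 0.894 (0.855 to 0.935). Kat7 (108 and 113 CPM), Hat1 (107 and 112 CPM) and Sirt6 (26.5 and 28.2 CPM) were the 3 with intervals above 1, at 1.05 (1.02 to 1.08), 1.05 (1.02 to 1.08) and 1.06 (1.00 to 1.13).

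Cluster by cluster, the lowest ratios of the sum were those of the Inhba-high granulosa cells. In cluster 0 the sum ratio was 0.936 (0.921 to 0.951), and in cluster 7 0.933 (0.911 to 0.956), against 0.997 (0.974 to 1.02) in cluster 5 and 1.01 (0.969 to 1.05) in cluster 10. Of 19 measured members 4 were at least 1.2-fold lower in cluster 0 and 0 higher, beside 10.9% and 7.9% of all genes: Kat6b (51.2 and 38.5 CPM), Sirt1 (81.9 and 65.7 CPM), Ncoa1 (60.03 and 49.3 CPM) and Kat2b (43.8 and 36.4 CPM). Hdac1 fell short of that fold in cluster 0, with 91.9 and 77.4 CPM and a ratio of 0.843 (0.789 to 0.900), and passed it in cluster 7, where 2 members did, beside 13.4%, with 94.7 and 78.4 CPM and a ratio of 0.828 (0.754 to 0.910); in the 5 other clusters its ratio lay between 1.01 and 1.11. Hat1 went the other way, at 1.19 (1.12 to 1.27) in cluster 0, but was 0.924 (0.856 to 0.996) in cluster 7. Kat6b was below 1 in all 7 clusters, with intervals below 1 in clusters 0, 2 and 3, and its lowest ratio was 0.752 (0.687 to 0.824). Other genes of cluster 0 differed between the libraries too. Inhba, a defining gene of the cluster, stood at 11201 and 5427 CPM, Top2a at 106 and 165 CPM, and of the genes with at least 20 CPM in both libraries 12 of 15 S phase genes and 9 of 10 G2 and M phase genes were at least 1.2-fold higher with PS-MP, beside 7.02% of all genes. By the same minimum, 0 of 18 S phase genes were higher in cluster 7 and 3 lower, beside 11.9%. The part of these differences in the ratios of the members was not tested.

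In stromal fibroblast-like cells 3 of 20 measured members were at least 1.2-fold lower and 0 higher, beside 5.58% and 4.28% of all genes. With at least 20 CPM in both libraries the count was 3 of 18, beside 4.52%. They were Sirt1 (47.1 and 36.7 CPM, ratio 0.779, 0.698 to 0.870), Ncoa3 (30.8 and 24.4 CPM, ratio 0.793, 0.692 to 0.908) and Kat6b (48.6 and 39.8 CPM, ratio 0.819, 0.736 to 0.911). By that minimum 6 of 15 G2 and M phase genes were lower in these cells too, and their part was not tested. Cluster 3 had 3 of 21 lower and 0 higher, beside 6.47% and 3.54%: Hdac8 (25.4 and 20.9 CPM), Kat6b (44.9 and 37.2 CPM) and Sirt3 (36.4 and 30.3 CPM). The number in cluster 3 was 0 with a mitochondrial limit of 10%, and 1 with TMM factors, with doublets kept or at a clustering resolution of 0.8. In theca-like cells 4 of 22 were lower and 0 higher, beside 12.4% and 7.63%: Hdac2 (69.3 and 51.9 CPM, ratio 0.749, 0.640 to 0.876), Kat2b (60.3 and 47.5 CPM, ratio 0.788, 0.667 to 0.929), Ncoa2 (43.8 and 35.6 CPM) and Hdac8 (21.4 and 17.3 CPM), the last with an interval that held 1. Hdac8 was counted only through its control level, and with at least 20 CPM in both libraries 3 of 19 were lower, beside 10.3%. The theca-like cells also held summed luteal markers of 12047 and 10737 CPM, beside 6201 and 5371 CPM of theca markers. In macrophage or monocyte-like cells 3 of 19 members were at least 1.2-fold higher, beside 13.8% of all genes, and 0 lower, beside 10.7%; the 3 were Ncoa1 (41.9 and 51.5 CPM), Kat2a (16.6 and 21.2 CPM) and Sirt6 (16.9 and 22.8 CPM), and 0 measured members had an interval above or below 1, beside 11.6% and 11.2%. Kat2a and Sirt6 were counted only through their PS-MP level, and with at least 20 CPM in both libraries 1 of 16 was higher, beside 10.6%.

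Blood endothelial-like cells had the lowest ratio of the sum among the 6 groups. Of 21 measured members 11 were lower by at least 1.2-fold and 0 higher, beside 18.3% and 12.6% of all 7302 genes, and the median log2 ratio was -0.26 against -0.02. Counting only genes with at least 20 CPM in both libraries, 9 of 19 members were lower, beside 15.5%, and the median was -0.17 against -0.02. Hdac5 and Hdac8 were counted only through their control level. Hdac7, the member restricted to these cells, was at 166 and 136 CPM, with a ratio of 0.821 (0.709 to 0.949). Ep300 (101 and 80.3 CPM), Crebbp (116 and 91.6 CPM), Sirt2 (94.5 and 77.2 CPM) and Hdac8 (21.3 and 13.5 CPM) were the others with intervals below 1, which 11.6% of all genes had, at 0.799 (0.660 to 0.965), 0.787 (0.658 to 0.938), 0.817 (0.672 to 0.992) and 0.633 (0.396 to 0.993). Hdac1 was on the other side, at 71.5 and 81.2 CPM with a ratio of 1.14 (0.926 to 1.39). The group was small, with 350 and 313 cells and medians of 6931.5 and 5970 counts per cell, so an interval of a single member spans a wide range. Summed lymphatic endothelial markers were 618 and 315 CPM, summed luteal markers 188 and 417 CPM and summed granulosa markers 2588 and 2116 CPM in the 2 libraries, and their part in these ratios was not tested. In the same cells 12 of 15 S phase genes with at least 20 CPM in both libraries were at least 1.2-fold higher, beside 10.4%, with their sum at 967 and 1399 CPM, and 6 of 14 immediate early genes at least 1.2-fold lower, beside 18.3%, with their sum at 15500.2 and 12857 CPM. Their part was not tested either.

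**Figure D5:**
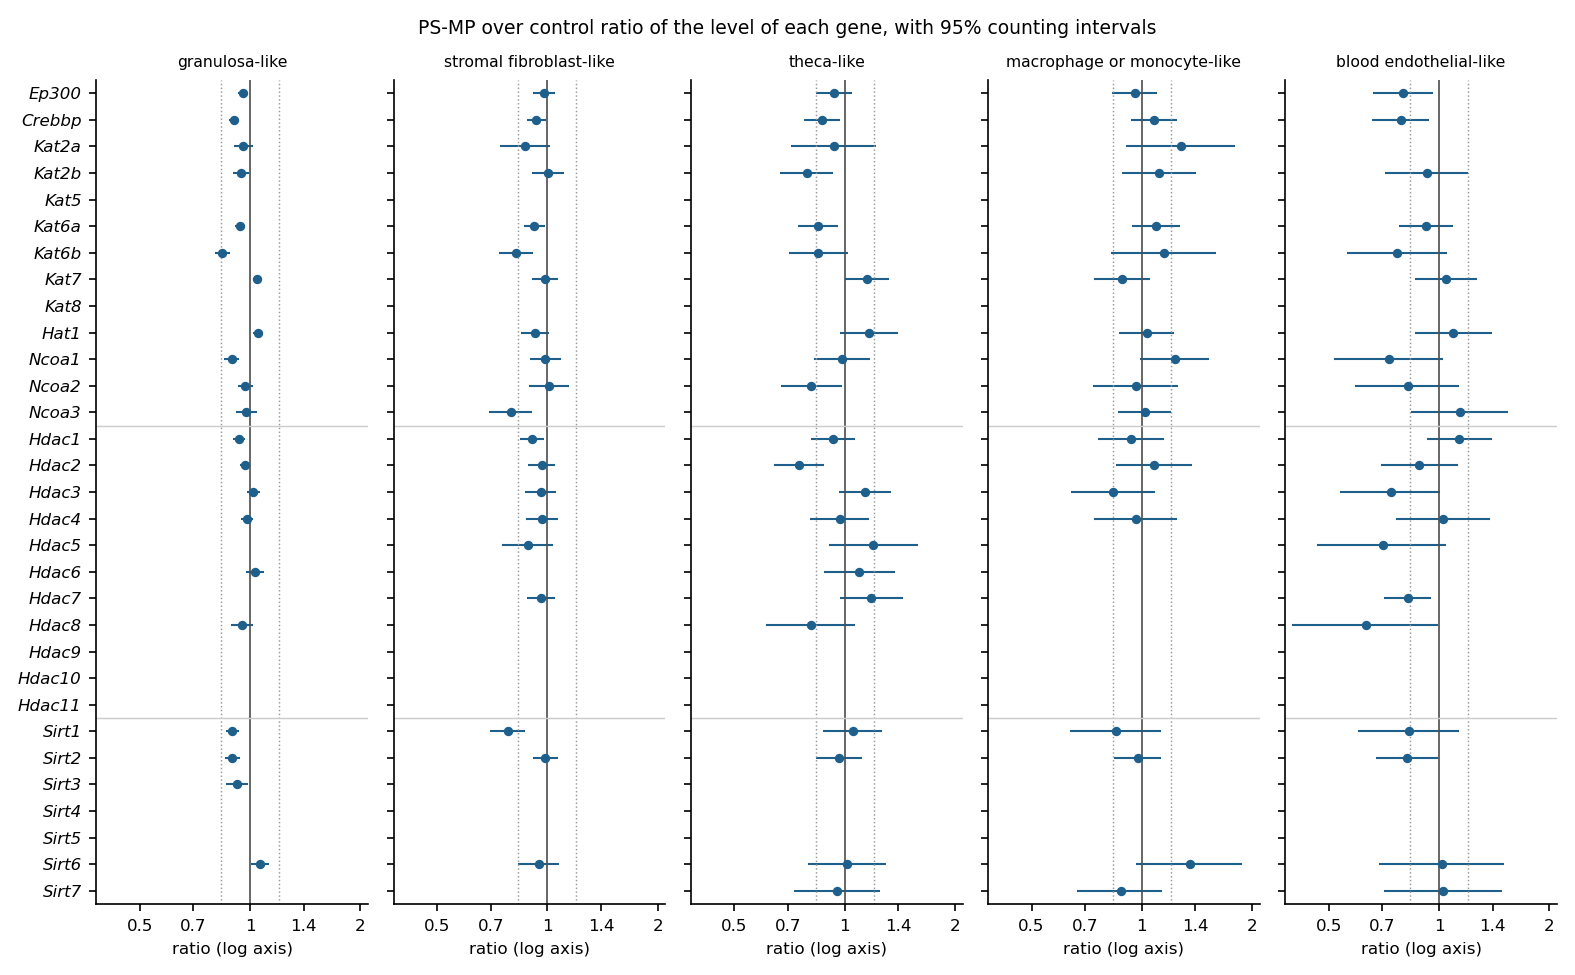
PS-MP over control ratio (x axis, log scale) of each member (rows) in 5 cell groups, for members that reached 20 CPM in either library; bars are 95% counting intervals, the solid line marks 1 and the dotted lines mark 1.2-fold. In granulosa-like cells all 21 points lie between the dotted lines, whereas in blood endothelial-like cells 11 of 21 lie to the left of them.

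Oocyte-like cells were too few for the count of members past a fold. Their summed level was 1725 and 1579.9 CPM, a ratio of 0.916 (0.872 to 0.962), with Kat6a at 69.8 and 52.6 CPM (ratio 0.753, 0.576 to 0.982) and Sirt6 at 66.9 and 49.3 CPM (ratio 0.737, 0.559 to 0.967). Here 25 of 76 control and 43 of 93 PS-MP cells did not hold more oocyte than granulosa marker counts. Restricted to the 51 and 50 cells with more oocyte markers, the sum was 1774 and 1700.2 CPM. In those cells the intervals of the 2 libraries overlapped for the sum (1708 to 1842 and 1629 to 1774), for Kat6a (63.4 and 48.2 CPM) and for Sirt6 (77.1 and 61.1 CPM). In luteal-like cluster 12 the sum ratio was 1.01 (0.957 to 1.06), and Hat1 stood at 43.7 and 30.7 CPM, a ratio of 0.703 (0.513 to 0.951). Cluster 6, the luteal-like cluster found almost only in the PS-MP library, held 1153 CPM of the 31 genes. Its Hat1 (32.8 CPM) was close to that of cluster 12 in the PS-MP library (30.7 CPM), while Ncoa1 was higher (76.1 against 39.2 CPM), as was Sirt1 (37.7 against 21.2 CPM), and Hdac1 was lower (73.3 against 97.5 CPM).

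The partners of these enzymes were read from 8 further lists in granulosa-like cells, with the same shares of all genes as background. Of 31 measured subunits of acetyltransferase complexes, out of 36, 0 were past 1.2-fold in either direction, with a median log2 ratio of -0.03 that TMM factors moved to just above 0. Msl2, which partners Kat8 in the MSL complex, stood at 39.4 and 34.6 CPM, with a ratio of 0.879 (0.835 to 0.924). Of 32 measured subunits of deacetylase complexes, out of 35, 1 was lower and 0 higher: Rcor3, of the CoREST complexes that hold Hdac1 and Hdac2, stood at 26.1 and 21.0 CPM, with a ratio of 0.803 (0.753 to 0.856). Of 24 measured acetyl-lysine readers, out of 28, 0 were past 1.2-fold; Baz1a, a remodelling subunit with a bromodomain, was the only one of the 4 named by rule that was higher, at 66.0 and 72.5 CPM, with a ratio of 1.10 (1.06 to 1.14), while Taf1, Smarca2 and Bptf had ratios of 0.884, 0.895 and 0.914.

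Of 9 measured genes of acetyl-CoA and NAD supply, out of 20, 0 were past 1.2-fold, and Nampt, the rate-limiting enzyme of NAD salvage, stood at 80.5 and 77.7 CPM, with a ratio of 0.964 (0.932 to 0.998). Of 18 measured class IIa partners, out of 20, 3 were lower and 0 higher, and 1 was past 1.2-fold with TMM factors. Mef2c, the transcription factor bound by class IIa deacetylases, stood at 67.3 and 54.5 CPM, with a ratio of 0.811 (0.779 to 0.844). Prkd1 and Camk1d, which encode kinases of the families that phosphorylate class IIa deacetylases, had ratios of 0.822 and 0.830. Of 15 S phase genes with at least 20 CPM in both libraries, out of 18, 1 was higher, beside 1.04% of all genes, and 0 lower, with a median of 0.11; Mcm4, a subunit of the replicative helicase, stood at 111 and 130.1 CPM, with a ratio of 1.17 (1.14 to 1.21), which was the same direction as Hat1 and Kat7. Of 18 G2 and M phase genes 1 was higher, Aurkb, at 41.9 and 50.4 CPM, with a ratio of 1.204 (1.15 to 1.26), and of 14 immediate early genes, which respond to tissue dissociation, 0 were past 1.2-fold in the summed cells, with Fos at 2605 and 2284 CPM, with a ratio of 0.877 (0.871 to 0.882). Single clusters differed in direction by the same fold. Of the 14, 7 were higher in cluster 2, beside 5.07% of all genes, and 0 lower. In cluster 4, 8 were higher, beside 3.09%, and in cluster 5, 4, beside 5.67%, with 0 lower in either. Cluster 3, kept apart, had 3 higher, beside 3.54%, and 0 lower. Cluster 0 had 3 lower and 1 higher, beside 10.9% and 7.9%. Cluster 7 had 1 lower and 1 higher, beside 13.4% and 6.76%. With at least 20 CPM in both libraries, cluster 10 had 4 of 14 lower and 1 higher, beside 8.37% and 8.7%.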

How the data were processed

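Single-cell RNA sequencing of mouse ovary was read from 1 control and 1 PS-MP library. The authors deposited UMI counts per gene and barcode, whole numbers without normalization. The submitters' processing notes name the build GRCm39 and Seurat without a role for either, and the sources used here do not give the counting tool or its strand setting. Of 15373 control and 15056 PS-MP barcodes, 3 of which occur in both libraries, cells were kept with at least 500 genes and at most 25% mitochondrial counts. Doublets called by scanpy 1.11.5 (Scrublet, expected rate 5%) were left out, 315 control and 358 PS-MP cells. Cells were clustered jointly (Python 3.11.15, scanpy, leidenalg 0.10.2) on 2000 variable genes and 30 components, with 15 neighbours and a Leiden resolution of 0.5, without batch correction. Clusters were named from marker lists with a score whose minimum of 0.15 was set after the files were read, so that names are rebuilt and may differ from the study's.

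Counts were summed per group and library, divided by the group's total and scaled to 1000000 (CPM), with exact Poisson intervals for levels and conditional binomial intervals for ratios, at 95%. PS-MP over control ratios were counted for genes with at least 20 CPM in a library, in groups with at least 200 cells in each library, against folds of 1.2 and 1.5. Log2 ratios used CPM plus 1. A design with 1 library per group has no residual spread, so no test was run, and animals, libraries and treatment cannot be told apart. The calculations were tested on simulated data. The 31 members, the related lists and the marker lists were chosen with earlier results of these data known. All members could be named, and of each related list up to 4 genes with the ratio farthest from 1 in granulosa-like cells. Alternatives changed the mitochondrial limit (10%), doublets, resolution (0.3 and 0.8), variable genes, scaling (edgeR 4.0.16 TMM factors in R 4.3.3), depth (thinning to 3500 counts) and the CPM minimum.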

Additional observations from a re-analysis of the deposited data

How the results depend on the processing

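No paired analysis was possible because each group is 1 library, and no replicate could be left out. Over all alternatives the ratio of the summed members stayed below 1 in granulosa-like cells (0.937 to 0.984), cluster 3, stromal fibroblast-like, theca-like and blood endothelial-like cells (0.877 to 0.900) and in all cells together, and the median of the members in granulosa-like cells stayed below 0. In macrophage or monocyte-like cells the ratio ran from 0.991 to 1.05. The cause of the shifts below was not tested. Shares of all genes past 1.2-fold were not counted under these settings. The numbers of genes past it are therefore given only to show how they depend on the processing. With TMM factors the ratio of the sum was 0.992 in all cells, 0.984 in granulosa-like cells and 0.996 in cluster 3, 1 member was past 1.2-fold in cluster 3 and 1 class IIa partner in granulosa-like cells. The median log2 ratio turned to 0.0041 for acetyltransferase complex subunits and 0.018 for class IIa partners. With a mitochondrial limit of 10% the ratio was 0.946 in granulosa-like and 0.985 in theca-like cells. The number of members past 1.2-fold was then 1 in granulosa-like cells, 0 in cluster 3 and 5 in macrophage or monocyte-like cells, 2 deacetylase complex subunits were past it, the median of acetyl-CoA and NAD supply was -0.0012, and the control ratio of oocyte-like over granulosa-like cells was 1.37. Thinning to 3500 counts gave 2 members past 1.2-fold in all cells, 1 in granulosa-like cells, 5 in cluster 3 and 6 in macrophage or monocyte-like cells, 1 class IIa partner, a ratio of 0.921 in stromal fibroblast-like cells, and medians of -0.015 for acetyl-CoA and NAD supply and 0.0030 for class IIa partners.

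Counting the luteal-like cluster of the PS-MP library as granulosa-like gave a ratio of 0.937, with 3 members, 2 acetyltransferase complex subunits, 3 deacetylase complex subunits, 4 readers and 1 acetyl-CoA and NAD gene past 1.2-fold. Leaving that cluster out of all cells gave 0.963, and weighting the granulosa-like clusters alike gave 0.970. A minimum of 5 CPM gave 1 member past 1.2-fold in all cells, 5 in stromal fibroblast-like, 8 in theca-like and 8 in macrophage or monocyte-like cells. Without a minimum there were 2 in all cells, 1 in granulosa-like, 5 in stromal fibroblast-like, 10 in theca-like, 10 in macrophage or monocyte-like and 17 in blood endothelial-like cells, and 3 acetyl-CoA and NAD genes, since members with few counts enter. In theca-like cells 7 were past it without mitochondrial and ribosomal protein genes. In cluster 3 the number was 1 with doublets kept and 1 at resolution 0.8, and in macrophage or monocyte-like cells 7 at resolution 0.8 and 5 with the mean of each cell's CPM. In oocyte-like cells with more oocyte than granulosa markers, a choice made after the data were seen, the PS-MP ratio over granulosa-like cells was 1.32. Of the values recomputed, 43 that answer a comparison moved beyond their interval or by over 1.5 times, and 5 list medians turned. A further 18 values moved, among them ratios of single members between cell groups.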

Other observations

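Some members had the same side of 1 in most groups, and the share of all genes that did so was not counted. The median log2 ratio over all genes was itself below 0 in each of the 6 groups. Sirt2 had a PS-MP over control ratio below 1 in 6 of 6 groups, with the interval below 1 in 3. Its ratios were 0.894 (0.855 to 0.935) in granulosa-like, 0.866 (0.780 to 0.960) in cluster 3, 0.986 (0.912 to 1.07) in stromal fibroblast-like and 0.974 (0.841 to 1.13) in macrophage or monocyte-like cells. Crebbp was below 1 in 5 of 6 groups, with the interval below 1 in 4, among them stromal fibroblast-like (136 and 127 CPM) and theca-like cells (125 and 109 CPM). Kat6b was below 1 in 5 of 6 groups, with the interval below 1 in 3, and macrophage or monocyte-like cells were the exception, at 19.1 and 22.0 CPM. Ep300, Kat2a, Kat6a, Ncoa1, Ncoa2, Hdac2, Hdac4, Hdac8 and Sirt4 were also below 1 in 5 of 6 groups, as was the sum. Kat8, Hat1, Hdac11 and Sirt6 were below 1 in only 1 of 6. The direction is therefore not read as particular to the members described. All groups of a library share that library, so these are not repeats of the comparison.

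The lists of dividing cells differed in direction between groups. Among genes with at least 20 CPM in both libraries, 7 of 15 S phase genes were higher by at least 1.2-fold with PS-MP in cluster 3, beside 2.92% of all genes, and 0 lower, while 8 of 13 were lower in macrophage or monocyte-like cells, beside 8.87%, and 0 higher. In the macrophage or monocyte-like cells 10 of 11 G2 and M phase genes were lower and 1 higher. Hat1, which was higher in the dividing cluster of the granulosa pairs compared above, had ratios of 1.11 (1.03 to 1.199) in cluster 3 and 1.03 (0.865 to 1.22) in macrophage or monocyte-like cells.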
